A study of Mus musculus with 6 samples.

Results

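The genes examined here encode the nuclear lamina and the proteins that tie chromatin and the cytoskeleton to it. They are the 10 genes Lmna, Lmnb1, Lmnb2, Lbr, Tmpo, Lemd2, Lemd3, Sun1, Sun2 and Banf1, chosen by symbol from the 35976 genes of the count table, and all 10 were found and passed the filter on low counts. The lamina is a meshwork of intermediate filament proteins, the lamins, under the inner nuclear membrane. Silent chromatin that carries methylation on lysine 9 of histone H3 is held against it, with the lamin B receptor and A-type lamins as the best known tethers, while LEM-domain proteins bind chromatin through the small DNA-binding protein BAF and SUN proteins span the inner membrane to reach the cytoskeleton. In cartilage, as in other load-bearing tissues, A-type lamin is an abundant nuclear protein.

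Polyadenylated RNA had been sequenced from mouse articular chondrocytes of the hind limb, taken from C57BL/6 x 129S4/SvJae embryos at day 18.5. The cells were expanded on tissue culture plastic for 16 population doublings, and both groups received doxycycline at 2 µg/ml to switch on a histone H3.3 transgene. In the H3K9M group (3 libraries, replicates 1, 3 and 5) that transgene carries methionine in place of lysine 9 and methylation of this residue is suppressed per the labels. In the H3WT group (3 libraries, replicates 1, 2 and 4) it is wild-type H3.3. The promoter of the transgene, and whether the replicate numbers stand for animals, are not given in the sources used here, so p-values measure the spread between these libraries, which may be technical. The comparison asked whether transcripts of the lamina differed between expanded chondrocytes with and without suppression of this mark.

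Totals ran from 15113675 to 19606082 counts a library, which is deep for these genes, since the lowest count of a member in any library was 388 reads (Lemd3). Counts of H3f3a (746 to 939 CPM, library-scaled read counts, here scaled by TMM, the trimmed mean of M-values) and H3f3b (243 to 262 CPM) overlapped between the groups, and do not tell transgene from endogenous H3.3. Chondrocyte markers were present in every library, with Col2a1 between 4913 and 14110.3 CPM, and their summed level was 7320.4 to 11444 CPM in H3K9M and 7221 to 19055 CPM in H3WT. Of 8 skeletal muscle markers 7 had reads, and their summed level was 155, 226 and 21.2 CPM in replicates 1, 3 and 5 of H3K9M against 11.1 to 31.7 CPM in H3WT. Acta1 made up most of the H3WT sum in replicates 1 (26.2 CPM) and 4 (24 CPM), with 3.27 CPM in replicate 2. It had 32.8, 33.2 and 5.97 CPM in H3K9M, so its groups overlapped (adjusted p 0.893 in edgeR). Myod1 had 19.5, 57 and 4.29 CPM in H3K9M replicates 1, 3 and 5, and at most 1.04 CPM in H3WT. Myh3 had 15.1, 23.7 and 1.73 CPM in the same H3K9M libraries, and at most 0.674 CPM in H3WT. For both genes the groups did not overlap, a separation seen in 19.4% of all tested genes. The adjusted p was 0.244 for Myod1 and 0.249 for Myh3 in edgeR, and 0.137 for each in DESeq2. Myf5 was at 0 throughout. Des, an intermediate filament gene of muscle, had 81, 98 and 8.78 CPM in H3K9M against 4.88, 6.8 and 1.71 CPM in H3WT, and it passed in DESeq2 (adjusted p 0.0151) but not in edgeR (0.255). Endothelial markers summed to 0.104 to 0.825 CPM with Cdh5, Tie1 and Emcn at 0, and macrophage and blood markers to 3.84 to 16.5 CPM with Ptprc, Adgre1 and Hbb-bs at 0. The genes of the last list with the smallest p were Cd68 and Csf1r, both with overlapping groups. All 10 chondrocyte markers had lower estimates in H3K9M, with a median log2 fold change of -0.82, against -0.0029 over all tested genes. Their groups overlapped in each case, and 0 passed at adjusted p in edgeR. Col9a1 and Sox9 were lower in H3K9M with adjusted p of 0.395 and 0.429 (edgeR's quasi-likelihood fit, Benjamini-Hochberg correction). In bulk libraries fewer cells of a type and less RNA per cell cannot be told apart.

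The stretches of genome before the start sites of Lbr, Tmpo and Sun2 are shown because these genes, with both B-type lamin genes, were all lowest in the same library, as described below. Each is the 250 bases upstream of a RefSeq start on the minus strand of GRCm38.p6 (the same chromosomes as mm10), written 5′ to 3′ toward the gene. Capitals mark TTTGAA (the cell cycle genes homology region, CHR), CCAAT (the CCAAT box), GGCGGGAA (an E2F-type site) and GGGCGG (the GC box), on either strand; the last pair can overlap. Both Tmpo windows lie inside the annotated span of the gene given below, before starts that the RefSeq table lists there.
Lbr, chr1:181842402-181842651: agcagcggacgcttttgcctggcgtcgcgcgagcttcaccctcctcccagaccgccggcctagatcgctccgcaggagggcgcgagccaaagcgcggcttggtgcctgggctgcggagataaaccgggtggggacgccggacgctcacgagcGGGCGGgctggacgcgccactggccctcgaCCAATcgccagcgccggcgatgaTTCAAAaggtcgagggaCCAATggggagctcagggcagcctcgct
Tmpo, first window, chr10:91171620-91171869: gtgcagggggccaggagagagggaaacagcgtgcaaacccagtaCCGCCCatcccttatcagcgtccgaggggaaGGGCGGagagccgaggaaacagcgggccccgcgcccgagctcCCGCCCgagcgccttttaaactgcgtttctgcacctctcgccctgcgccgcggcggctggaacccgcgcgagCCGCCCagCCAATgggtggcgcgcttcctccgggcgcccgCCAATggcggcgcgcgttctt
Tmpo, second window, chr10:91170551-91170800: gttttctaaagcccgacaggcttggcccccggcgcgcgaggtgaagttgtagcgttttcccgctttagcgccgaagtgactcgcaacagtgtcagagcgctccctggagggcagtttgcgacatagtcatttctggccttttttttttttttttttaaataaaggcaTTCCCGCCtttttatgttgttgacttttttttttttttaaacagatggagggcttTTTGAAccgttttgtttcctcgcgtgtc
Sun2, chr15:79742537-79742786: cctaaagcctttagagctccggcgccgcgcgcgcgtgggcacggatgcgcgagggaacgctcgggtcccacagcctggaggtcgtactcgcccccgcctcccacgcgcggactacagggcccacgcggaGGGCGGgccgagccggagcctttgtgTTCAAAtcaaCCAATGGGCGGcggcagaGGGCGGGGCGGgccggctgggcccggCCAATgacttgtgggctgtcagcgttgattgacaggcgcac
Lbr held 1 CHR, 2 CCAAT boxes and 1 GC box. The first Tmpo window held 2 CCAAT boxes and 4 GC boxes, and the second 1 CHR and 1 E2F-type site. Sun2 held 1 CHR, 2 CCAAT boxes and 4 GC boxes, in part overlapping one another. Among all 32817 windows of the same length, 16% held the CHR, 33.8% a CCAAT box, 1.85% the E2F-type site and 32.7% a GC box. Neither Lmnb2 window held a CHR, CCAAT box or E2F-type site. Lmna, Lemd3, Sun1 and Banf1, which were lowest in other libraries, also held CCAAT boxes and GC boxes. A Banf1 window held 1 E2F-type site, and no window of Lmna, Lemd3, Sun1 or Banf1 held a CHR. The windows compared are not all of one kind. All 250 bases of that Banf1 window, and 173 of the other, lie in an exon annotated on the same strand in GENCODE M21. Both Lmna windows lie inside the annotated span of the gene, so the bases before its outer end were not read. These matches are descriptions of letters, not of binding. Windows were used for 8 of the 10 genes. None was read for Lmnb1 or Lemd2, so whether these genes carry the motifs was not tested.

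None of the 10 lamina genes passed the test for a difference between the groups. The adjusted p-values ran from 0.599 (Tmpo) to 0.998 (Sun1) in edgeR's quasi-likelihood fit, with Benjamini-Hochberg correction over 13761 genes. At an unadjusted p under 0.05 the count was also 0 of 10, and it was 0 of 10 with DESeq2 and with limma-voom at adjusted p. The background for these counts is 0% of all tested genes at adjusted p, 12.2% at unadjusted p (6.42% higher and 5.77% lower in H3K9M) and 2.38% with DESeq2. Without H3K9M replicate 5 the count at unadjusted p was 1 of 10 (Tmpo, edgeR p 0.0445), where 1498 of 14308 tested genes were under 0.05. In no member did the 3 values of one group lie clear of the other, a separation seen in 19.4% of all tested genes. The estimates were 3 higher and 7 lower in H3K9M with a median log2 difference (the fitted fold change, H3K9M minus H3WT) of -0.08, against -0.0029 over all tested genes. In the fit of all 6 libraries the 95% intervals reached at most -0.83 (Tmpo) and 0.65 (Lmna). A 2-fold difference (1 on the log2 scale) lay outside each of these intervals. They are for single genes and are not widened for the number of genes. Intervals of the fits with a library left out are not given here, so whether this bound holds in them is not shown. The Tmpo estimate was -0.52 without H3K9M replicate 5.

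**Figure D1:**
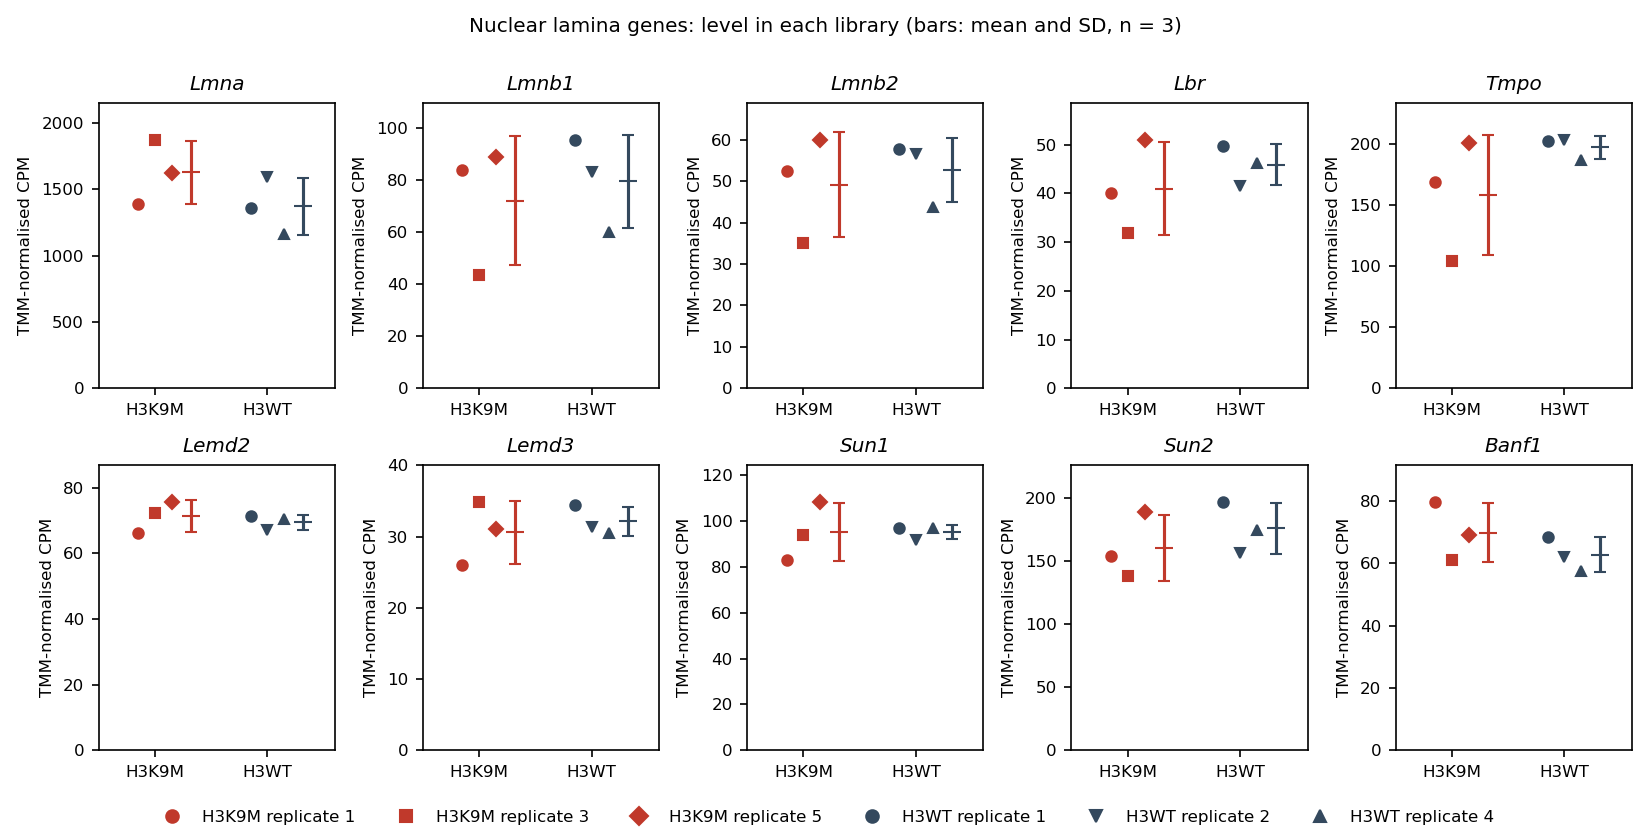
TMM-normalised CPM of each lamina gene (vertical axis, from 0) in the 6 libraries by group (horizontal axis); points are libraries, and the bar beside each group is its mean and SD (n = 3). The groups overlap for every gene, and the square for H3K9M replicate 3 is lowest for Lmnb1 (43.6 CPM), Lmnb2 (35.1), Lbr (31.9), Tmpo (104.4) and Sun2 (138.2) and highest for Lmna (1870.9).

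Lmna (chr3:88481148-88509932, minus strand, RefSeq on GRCm38.p6, as are all positions below), whose transcripts encode lamins A and C, was by far the most abundant member. It stood at 1390.3, 1870.9 and 1619 CPM in replicates 1, 3 and 5 of H3K9M, and at 1356.7, 1594.6 and 1163.3 CPM in replicates 1, 2 and 4 of H3WT. The highest H3K9M and the lowest H3WT libraries set the difference of means, and H3WT replicate 2 lay above H3K9M replicate 1. The group means were 1626.7 ± 240.4 and 1371.5 ± 216 CPM (SD, n = 3 each), a log2 difference of 0.25 (SE 0.18, 95% interval -0.16 to 0.65, edgeR adjusted p 0.612). Gene counts do not separate lamin A from lamin C. Without H3WT replicate 4 the log2 difference was 0.14, and without H3WT replicate 2 it was 0.38.

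The B-type lamins, which stay anchored in the membrane by a permanent lipid tail, shared one pattern over the libraries. Lmnb1 (chr18:56707813-56753424, plus strand) stood at 83.5, 43.6 and 88.8 CPM in replicates 1, 3 and 5 of H3K9M, and at 95.2, 83 and 59.8 CPM in replicates 1, 2 and 4 of H3WT. One library in each group was low, H3K9M replicate 3 and H3WT replicate 4, and the others lay close together. The log2 difference was -0.14 (SE 0.29, 95% interval -0.81 to 0.53, edgeR adjusted p 0.89). Its sign turned without H3K9M replicate 3 (0.13) and without H3WT replicate 1 (0.01).

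Lmnb2 (chr10:80901363-80918245, minus strand) stood at 52.5, 35.1 and 59.9 CPM in the H3K9M libraries and 57.8, 56.5 and 43.8 CPM in the H3WT libraries, in the same replicate order. Its low libraries were the same as those of Lmnb1. The log2 difference was -0.10 (SE 0.22, edgeR adjusted p 0.895), and 0.10 without H3K9M replicate 3.

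Lbr (chr1:181815315-181842401, minus strand) encodes the lamin B receptor, a membrane protein that binds both B-type lamin and heterochromatin protein 1. It stood at 40.1, 31.9 and 50.9 CPM in H3K9M and at 49.8, 41.4 and 46.3 CPM in H3WT. H3K9M held both the lowest and the highest library. The log2 difference was -0.16 (SE 0.19, edgeR adjusted p 0.787), and it was 0.0003 without H3K9M replicate 3. A Lbr transcript shares 440 identical bases with Dnah14, annotated on the opposite strand in GENCODE M21, and the strand setting of the counts is not given in the sources used here.

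The LEM-domain genes did not move together. Tmpo (chr10:91147571-91181752, minus strand) encodes the lamina-associated polypeptides 2, some in the membrane and some soluble. It had 169, 104.4 and 201 CPM in H3K9M and 202.5, 203.5 and 186.9 CPM in H3WT. The H3WT libraries were tight (197.6 ± 9.33 CPM) and the H3K9M libraries wide (158.1 ± 49.2 CPM; SD, n = 3 each), with replicate 3 far below the others and replicate 5 level with H3WT. Its log2 difference of -0.32 (SE 0.22, 95% interval -0.83 to 0.19, edgeR adjusted p 0.599) was -0.09 without H3K9M replicate 3 and -0.52 without H3K9M replicate 5. The isoforms cannot be separated in gene counts.

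Lemd2 (chr17:27189600-27205470, minus strand), an inner membrane protein that helps to reseal the envelope after mitosis, was the steadiest of the members over the 6 libraries. It had 66.1, 72.2 and 75.6 CPM in H3K9M and 71.2, 66.9 and 70.3 CPM in H3WT, a log2 difference of 0.04 (SE 0.11, edgeR adjusted p 0.932). Lemd3 (chr10:120923411-120979396, minus strand), which encodes MAN1, an antagonist of SMAD signalling, had 26, 34.8 and 31 CPM in H3K9M and 34.5, 31.3 and 30.6 CPM in H3WT. H3K9M replicate 1 was the low library for both genes, unlike the lamins. The log2 difference of Lemd3 was -0.07 (SE 0.16, edgeR adjusted p 0.905), and 0.04 without that library.

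The SUN-domain genes encode the inner part of the LINC complex, the bridge from lamina to cytoskeleton. Sun1 (chr5:139200564-139249839, plus strand) had 82.9, 93.9 and 108.1 CPM in H3K9M and 96.9, 91.6 and 96.6 CPM in H3WT. Its estimate was -0.0011 (SE 0.13, 95% interval -0.30 to 0.30, edgeR adjusted p 0.998), with a sign that turned under total-count scaling (0.06). Sun2 (chr15:79724068-79742536, minus strand) had 153.7, 138.2 and 189.1 CPM in H3K9M and 196.8, 156.2 and 175 CPM in H3WT. Its groups overlapped, with a log2 difference of -0.13 (SE 0.15, edgeR adjusted p 0.779) and -0.03 without H3K9M replicate 3.

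Banf1 (chr19:5364633-5366876, minus strand) encodes BAF, the DNA-crosslinking protein that LEM domains grip. It had 79.6, 61 and 69 CPM in H3K9M and 68.5, 62.1 and 57.4 CPM in H3WT. H3K9M replicate 1 was the high library and H3WT replicate 4 the low one. The log2 difference was 0.16 (SE 0.14, edgeR adjusted p 0.706), and 0.05 without H3K9M replicate 1. Banf1 shares 428 identical bases with Eif1ad on the opposite strand and is 90% identical over 271 bases to Gm5393, so its count is uncertain.

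**Figure D2:**
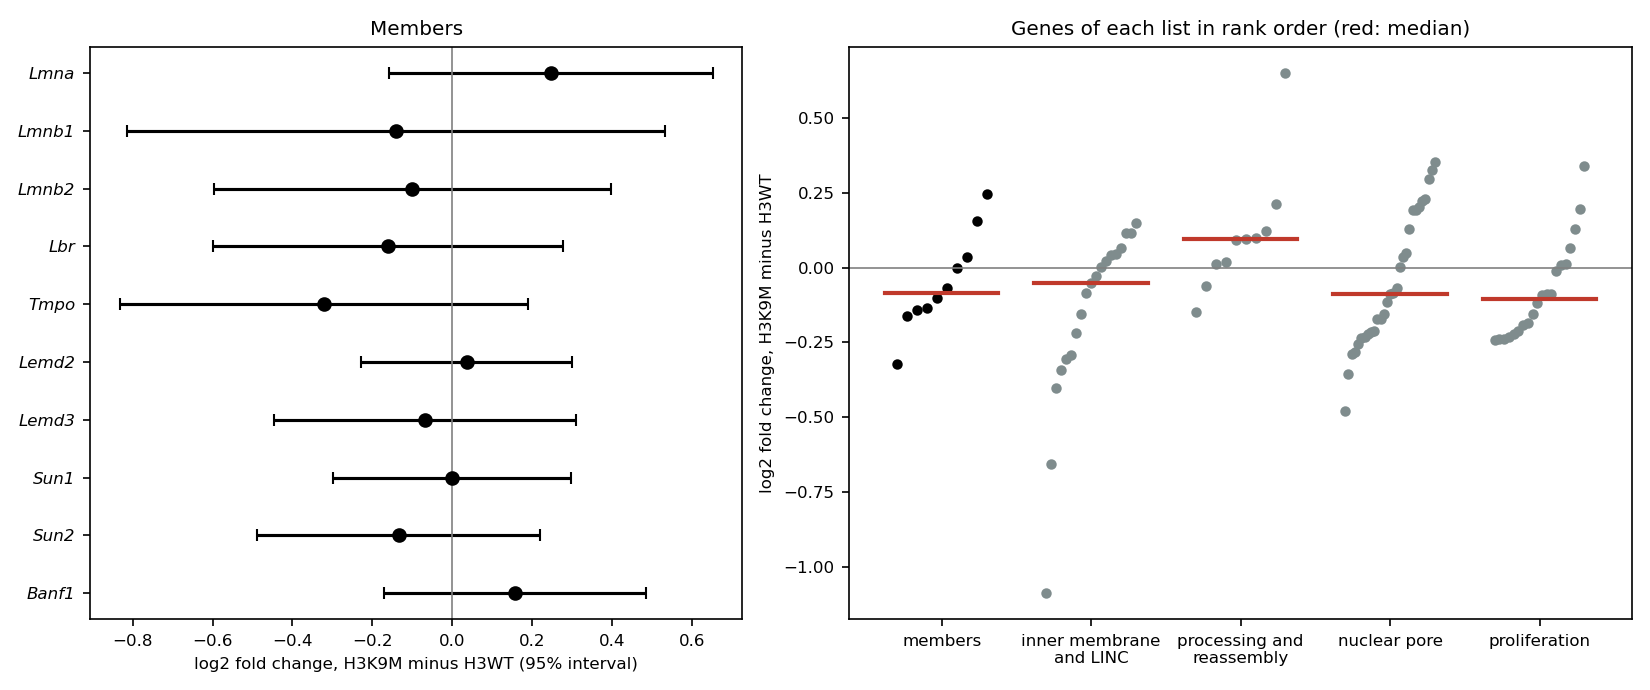
Left, log2 fold change (H3K9M minus H3WT) of each member with its 95% interval; every interval includes 0. Right, log2 fold changes of the tested genes of each list in rank order, with the list's median in red: -0.08 for the members, -0.05 for other inner membrane and LINC proteins, 0.10 for processing and reassembly, -0.09 for the nuclear pore and -0.10 for proliferation.

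Per length of the longest reference transcript, Lmna stood apart from the rest of the lamina. Its level ranged from 294.7 to 473.9 CPM per kilobase over the 6 libraries, at a median higher than that of 99.1% of tested genes with a length. The lowest of these values lay above the highest of Banf1, the next in order (45.5 to 63.1 CPM per kilobase). Tmpo (23.5 to 45.8), Sun2 (31.3 to 44.6), Lmnb1 (15.3 to 33.5), Lemd2 (23.5 to 26.9) and Sun1 (20.1 to 26.1 CPM per kilobase) followed, each overlapping its neighbours, as Banf1 did with Tmpo. Lmnb2 (9.95 to 17) lay below Sun1 without overlap and overlapped Lbr (9.1 to 14.5). Lemd3 was the lowest (5.48 to 7.34 CPM per kilobase), below every library of Lbr and at a median above 45.8% of tested genes. Where cells use a shorter isoform, this scale understates the level.

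**Figure D3:**
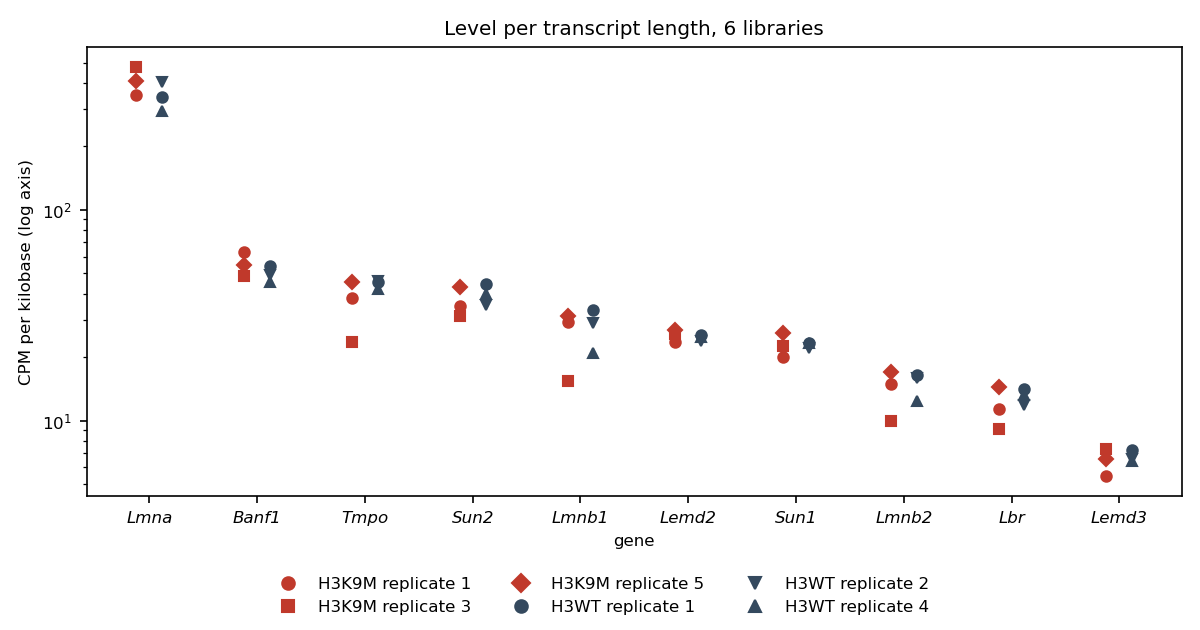
CPM per kilobase of the longest transcript (log axis) for each member, ordered by median; points are libraries, with H3K9M to the left and H3WT to the right in each gene. Lmna lies at 294.7 to 473.9, and the other members between 5.48 and 63.1.

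The balance of A-type to B-type lamin transcript was read as a ratio of counts within a library, which library scaling does not touch. There were 16.6, 42.9 and 18.2 Lmna reads per Lmnb1 read in replicates 1, 3 and 5 of H3K9M, and 14.2, 19.2 and 19.5 in replicates 1, 2 and 4 of H3WT. H3K9M replicate 3 stood far above the other libraries, which lay between 14.2 and 19.5. The mean log2 ratio was 4.56 ± 0.75 in H3K9M and 4.13 ± 0.25 in H3WT (SD, n = 3 each), a difference of 0.43 that did not pass a two-sided exact permutation test (p = 0.6, and 0.6 adjusted over both ratios). Without H3K9M replicate 3 the difference was -0.004.

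The ratio of Lmna to Lbr, the 2 tethers, was 34.7, 58.6 and 31.8 in H3K9M and 27.2, 38.5 and 25.1 in H3WT. H3WT replicate 2 lay above H3K9M replicates 1 and 5. The difference in mean log2 ratio was 0.43 (5.33 ± 0.48 against 4.90 ± 0.33; SD, n = 3 each; two-sided exact permutation p = 0.3, and 0.6 adjusted over both ratios), and 0.16 without H3K9M replicate 3. With 3 libraries a group the smallest p this test can give is 0.1, so neither ratio could have passed 0.05.

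**Figure D4:**
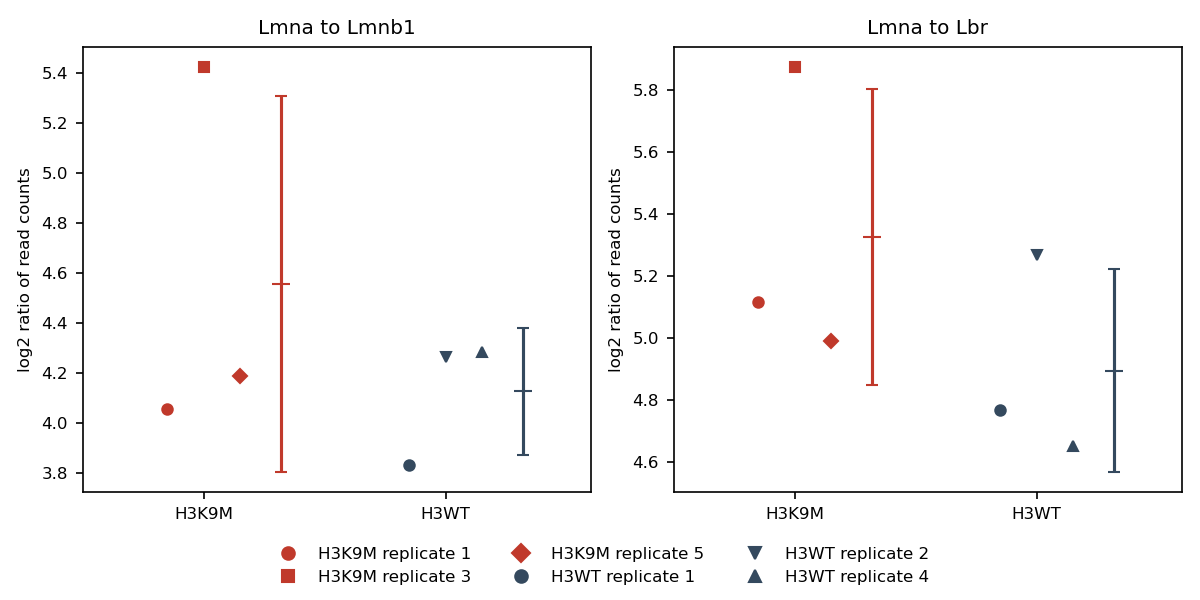
log2 of the ratio of Lmna reads to Lmnb1 reads (left) and to Lbr reads (right) in each library by group, with the mean and SD of each group (n = 3). H3K9M replicate 3 is the highest library in both panels, at 5.42 and 5.87.

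The low library of the B-type lamins, Lbr, Tmpo and Sun2 was also low in genes of the dividing cell. Of 20 genes of DNA replication and mitosis, 14 were lowest in H3K9M replicate 3 and the other 6 in H3WT replicate 4. The share of all tested genes that were lowest in each library was not counted. Their summed level was 1818.9 CPM in H3K9M replicate 3 and 2032.7 CPM in H3WT replicate 4, against 2859 to 3210.1 CPM in the other 4 libraries. Of the B-type lamin genes, Lbr, Tmpo and Sun2, only the B-type lamin genes were low in H3WT replicate 4 as well. Against the mean log2 CPM of the 6 libraries, Lmnb1 was at -0.29 and Lmnb2 at -0.194 there. Lbr (0.11), Tmpo (0.107) and Sun2 (0.068) lay above their means in that library. H3WT replicate 4 was also the lowest library of Lmna (-0.349) and Banf1 (-0.199). Lmna was thus highest in H3K9M replicate 3 and lowest in H3WT replicate 4. Mki67, which coats mitotic chromosomes, stood at 532, 301.6 and 622.6 CPM in H3K9M and 674.8, 625 and 409.8 CPM in H3WT. Top2a, a DNA topoisomerase of dividing cells, stood at 350.4, 198.2 and 302.8 CPM in H3K9M and 384.5, 369.6 and 249.8 CPM in H3WT. Between the groups 0 of the 20 passed, at adjusted or unadjusted p in edgeR, DESeq2 or limma-voom, and their median log2 difference was -0.10, with 6 higher and 14 lower. Without H3K9M replicate 3 the estimates turned to 14 higher and 6 lower, with a median of 0.09. The estimates with the smallest p were lower for Mcm2 (-0.21) and Rrm2 (-0.24) and higher for Ccnb1 (0.34) and Birc5 (0.20), with adjusted p of 0.658 or more (edgeR). H3K9M replicate 3 was also the library with the most muscle marker RNA (226 CPM), followed by H3K9M replicate 1 (155 CPM). The latter was second lowest of the 6 libraries for Lbr (40.1 CPM), Tmpo (169 CPM) and Sun2 (153.7 CPM), but for the B-type lamin genes both low libraries lay below it (83.5 CPM for Lmnb1 and 52.5 CPM for Lmnb2). The part of either in the lamina values was not tested.

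Likeness to Lmnb1 was described by Pearson's r of log2 CPM over the 6 libraries, which share their scaling and include both groups. Of 13760 other genes, Arhgdia (r 0.999), Ccdc15 (r 0.994) and Fam83d (r 0.991) were most like it. Mki67 ranked 7th (r 0.985) and Lmnb2 8th (r 0.984). Tmpo (r 0.86), Lbr (r 0.76) and Sun2 (r 0.67) came further down, and Lmna had r -0.31. The genes most like Lmna were Utp14a (r 0.999), Myo5a (r 0.992) and Usp30 (r 0.991). These genes were picked as the highest of all on 6 libraries, so their r is a description and was not tested.

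**Figure D5:**
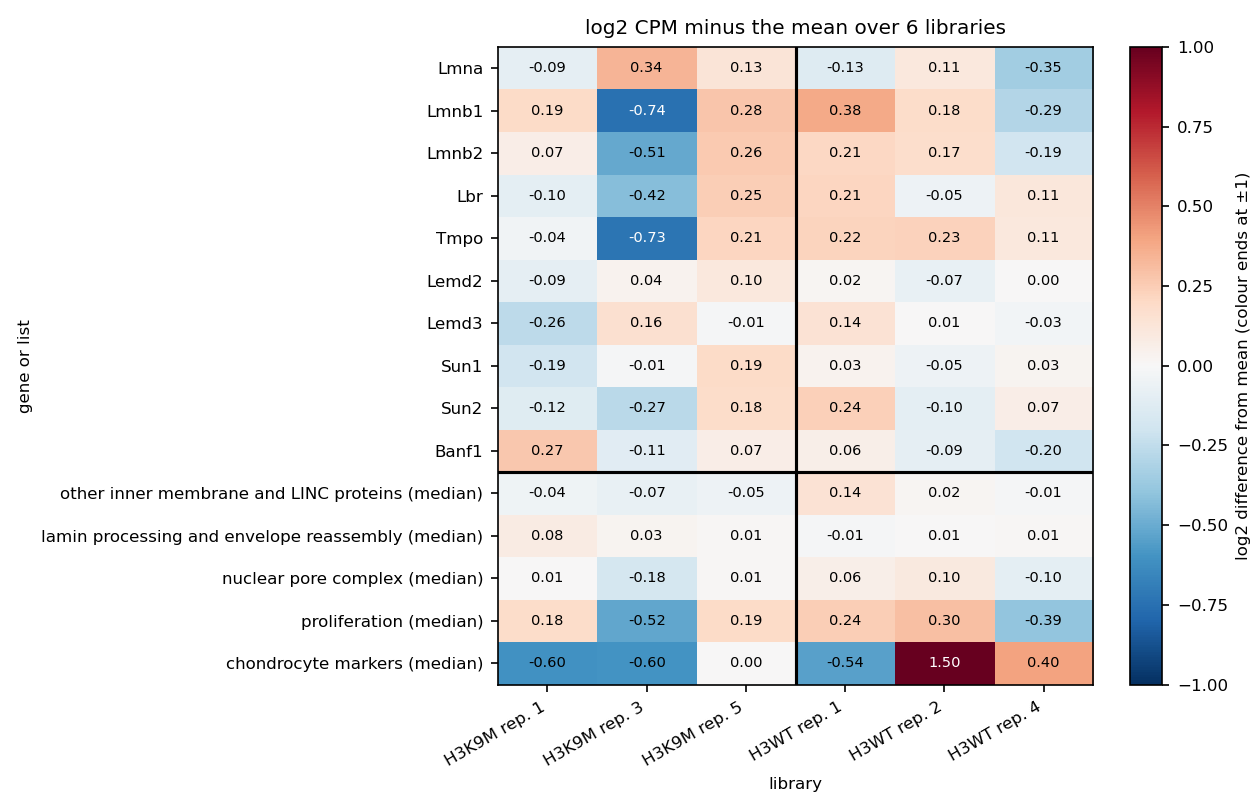
log2 CPM of each member, and the median of each list, minus its mean over the 6 libraries (colour and printed value; rows are genes or lists, columns are libraries). H3K9M replicate 3 is at -0.74 for Lmnb1, -0.73 for Tmpo, -0.51 for Lmnb2 and -0.52 for the proliferation list, and at 0.34 for Lmna.

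Other proteins of the inner nuclear membrane and the LINC complex were then read from the same fit. Of 20 listed genes 19 were tested, and 0 passed at adjusted p in edgeR, DESeq2 or limma-voom, with 8 higher and 11 lower in H3K9M and a median of -0.05. At unadjusted p 3 of 19 were lower, where 5.77% of all tested genes were, and these were Ankle1, Prr14 and Syne3. That count was 0 without H3WT replicate 1, and 1 without H3K9M replicate 1, without H3WT replicate 4 or with total-count scaling. Prr14, which tethers heterochromatin protein 1 to the lamina, had 52.3, 52.4 and 72.5 CPM in H3K9M and 83.3, 70.1 and 81 CPM in H3WT (log2 difference -0.40, SE 0.16, edgeR adjusted p 0.383), and its groups overlapped. Ankle1, a LEM-domain nuclease, had 8.51, 3.09 and 7.55 CPM against 16.6, 14.3 and 9.72 CPM (log2 difference -1.09, SE 0.41, adjusted p 0.353). Syne3, a nesprin of the outer membrane, was at 68.3, 86.6 and 85.3 CPM against 97.7, 94 and 104.7 CPM (log2 difference -0.30, adjusted p 0.41). The groups did not overlap in 5 of the 19 genes, against 19.4% of all tested genes, with Ankle1, Syne3, Tmem201 and Mlip lower and Hdac3 higher in H3K9M. The estimates with the smallest p in the other direction were Hdac3, a deacetylase that partners lamina-associated polypeptide 2 (0.11, adjusted p 0.735), and Syne2 (0.15, adjusted p 0.844).

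Genes that process lamins or rebuild the envelope numbered 10, and 0 passed at adjusted p in edgeR, DESeq2 or limma-voom, with 8 higher and 2 lower in H3K9M. The 1 gene of the 10 at an unadjusted p under 0.05, against 12.2% of all tested genes (6.42% higher in H3K9M), was Vrk2, a kinase related to the BAF kinase Vrk1. It had 13.5, 13.9 and 12.2 CPM in H3K9M and 7.52, 9.7 and 8.01 CPM in H3WT, with a log2 difference of 0.65 (SE 0.23, edgeR adjusted p 0.324). Its groups did not overlap, the 1 such gene of the 10, against 19.4% of all tested genes. The count of 1 became 0 without H3K9M replicate 1 or 3 and without H3WT replicate 1 or 4. Zmpste24, the protease that matures prelamin A, had a log2 difference of 0.21 (adjusted p 0.636). Vrk1 was at -0.15 and Icmt, which methylates the lamin tail, at -0.06, with adjusted p of 0.864 and 0.867.

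Of 30 nuclear pore genes 29 were tested and 0 passed at adjusted p in edgeR, DESeq2 or limma-voom, with 12 higher and 17 lower and a median of -0.09. Sec13, a scaffold protein shared with vesicle coats, was the 1 gene of 29 at an unadjusted p under 0.05, against 12.2% of all tested genes (6.42% higher in H3K9M). It stood at 190.7, 148.6 and 188.3 CPM in H3K9M and 145, 141.1 and 126.7 CPM in H3WT, a log2 difference of 0.35 (SE 0.14, edgeR adjusted p 0.364). The count of 1 was 0 without H3K9M replicate 1 or 5, and 2 without H3K9M replicate 3 or H3WT replicate 2. The groups did not overlap in 1 pore gene higher and 3 lower in H3K9M, against 19.4% of all tested genes. Seh1l was at 0.23 (adjusted p 0.572). Among estimates in the other direction, Nup160 was at -0.36 and Nup153, a basket protein that touches the lamina, at -0.26, with adjusted p of 0.424 and 0.434. Of these 29 genes 12 were lowest in H3K9M replicate 3 and 10 in H3WT replicate 4, without a count over all tested genes to set beside them. Without H3K9M replicate 3 the estimates of the 10 lamina genes were 7 higher and 3 lower, with a median of 0.03.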

How the data were processed

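The authors deposited a table of raw counts, with gene symbols in rows and libraries in columns. The submitters' processing notes name HISAT2, featureCounts, DESeq2 and the build mm10, without versions. Annotation, strand and multi-mapping settings are not given in the sources used here. Each column matched 1 sample title, and groups come from the titles.

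The reported fit used edgeR 4.0.16 in R 4.3.3 (filterByExpr, TMM, robust glmQLFit and glmQLFTest) over all 6 libraries with genotype as the only term, and p-values were adjusted by Benjamini-Hochberg over 13761 genes with a threshold of 0.05. The SE is the size of the log2 fold change divided by the square root of F. The 95% interval uses the t distribution on the fit's degrees of freedom. The fitting code was run on simulated data, and the outcome is not given here. The share of true 2-fold differences that the fit would find is thus not stated. Alternatives were limma-voom (limma 3.58.1), DESeq2 1.42.0, other scalings and filters, and leaving out each library. Lengths and overlaps came from GENCODE M21, gene coordinates and promoters from RefSeq GRCm38.p6, and similar transcripts (at least 90% identity over 200 bases) from blastn 2.17.0. The listed symbols Nemp1, Nup58, Nup42 and Cnmd were read under older symbols.

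The members, lists and tests were chosen with earlier results of these data known. Named genes are the members, the 2 genes of each other list with the smallest p in each direction, Mki67 and Top2a, and the 3 most like Lmna and Lmnb1. Syne3, Tmem201, Mlip and Des were added after their values were seen.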

Additional observations from a re-analysis of the deposited data

How the results depend on the processing

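No paired analysis was possible because the groups share only replicate number 1. The count of changed genes over the whole table was 0 and became 365 with DESeq2 and 36 with every gene that had a count. Leaving out single libraries gave 0 to 91, with 91 without H3WT replicate 2 and 2 without H3K9M replicate 3. The cause was not tested. The count among the 10 lamina genes was 0 in each of these settings. It was also 0 in the inner membrane and LINC, processing and reassembly, nuclear pore and proliferation lists. The cell type marker lists were not run through these settings, other than DESeq2.

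The estimate of Sun1 turned positive with total count alone (0.0574) and with all genes that had a count (0.0018). With 1 library left out at a time, log2 fold changes ran from -0.0945 to 0.0893 for Sun1, -0.31 to 0.13 for Lmnb1, -0.26 to 0.10 for Lmnb2, -0.34 to 0.0003 for Lbr and -0.16 to 0.0376 for Lemd3. Lmna (0.14 to 0.38), Tmpo (-0.52 to -0.09), Sun2 (-0.26 to -0.03), Lemd2 (0.0019 to 0.09) and Banf1 (0.05 to 0.26) kept their sign in all 13 alternatives. The log2 ratio of Lmna to Lmnb1 differed by -0.004 to 0.68 when a library was left out and by -0.0765 between group medians, and that of Lmna to Lbr by 0.16 to 0.62. No library was thinned, so what depth adds to the error was not tested.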

Other observations

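Relatives of the lamina genes that belong to none of the lists were read after their values were seen. Lemd1, a LEM-domain gene, had 0, 4 and 0 reads in H3K9M replicates 1, 3 and 5 and 11, 10 and 17 reads in H3WT replicates 1, 2 and 4. It did not pass the filter on low counts, so no test was made. Lmntd2, which carries a lamin-tail domain, had 69 reads in H3WT replicate 2 and 0 to 12 in the other 5 libraries. Lmntd1, Sun3, Sun5 and Banf2 had 0 reads in every library, which allows up to 3 reads, or 0.153 to 0.198 CPM of the total count, in a library. That limit covers counting error only.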
